A study of Mus musculus with 6 samples.

Results

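The Zfp genes are the mouse genes named zinc finger protein followed by a number, and this report describes their expression in fibroblasts with and without cyclophilin D. They were taken as all probes whose single gene symbol in the probe annotation consists of Zfp, digits and at most 1 trailing letter, with the brightest probe standing for a gene. This gave 160 genes, carried by 206 probes, out of 7606 genes with a named probe and 45281 probes on the array. Of the 160 genes, 159 were bright enough to be tested. RefSeq lists 399 mouse genes with such a name, 394 of them protein-coding, and the other 239 had no named probe and were not analysed here.

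Most Zfp proteins carry a row of C2H2 zinc fingers, small loops held by a zinc ion that read DNA bases, and act as transcription factors. Many join the fingers to a KRAB domain, which recruits Trim28 (KAP1) together with histone methylation and heterochromatin proteins, and silences retroelements, imprinted regions and other genes. These KRAB genes multiplied by local duplication and lie in clusters of near-identical neighbours. Others of the family bind RNA, serve in pluripotent cells or direct mesenchymal and neural lineages.

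The series compared mouse embryonic fibroblasts (MEFs) that were wild type with MEFs homozygous for a knockout of CypD (cyclophilin D), a prolyl isomerase of the mitochondrial matrix whose gene is Ppif. Both groups had a C57BL/6 background, came from E13.5 embryos and grew in DMEM with 10% fetal calf serum, and each was hybridised to 3 Illumina bead arrays lettered A, B and C. Whether a letter stands for a separate embryo or culture, and how the allele was made, is not stated, so the p-values cover the variation among these arrays alone, and that variation may be technical. In such bulk samples, fewer cells of a type and less RNA per cell cannot be told apart.

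Array medians ran from 223 to 251 intensity units before normalization, and correlations over all probes were 0.992 to 0.994 for arrays of the same group and 0.984 to 0.986 for arrays of different groups. Ppif fell by 1.37 ± 0.066 on the log2 scale (SE, limma adjusted p = 2.96e-09), from 13.57, 13.70 and 13.62 to 12.25, 12.35 and 12.18. The position of its probe relative to the deleted part is not known here. Of 13 fibroblast markers 10 were tested, 4 of them above the 90th percentile of all probes, while the probes of Vim and Dcn were dim, at the 66.5th and 57.2nd percentile. Of the 10 tested fibroblast markers 3 rose (Pdgfra by 1.47, Col3a1 by 1.13 and Pdgfrb by 0.41) and 4 fell (S100a4 by 1.62, Dcn by 0.64, Col1a1 by 0.63 and Col1a2 by 0.36). Among all tested named genes 21.8% rose and 21.8% fell. Tested probes numbered 2 of 5 for epithelial markers, 0 of 4 for endothelial, 1 of 5 for leukocyte and 3 of 5 for neural markers. All 3 tested neural markers fell. The mean of Stmn2 went from 11.66 in wild type to 8.87 in knockout (log2 difference -2.79). Nes went from 11.17 to 10.23 (-0.94) and Mbp from 8.25 to 7.30 (-0.95). Of the epithelial markers Krt19 fell by 0.35. What part these marker changes have in the Zfp values was not tested.

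Most Zfp genes that changed were higher in the knockout cells. All values below are normalized log2 intensities and all differences are knockout minus wild type, tested with limma over 27168 probes, and a change is called at a Benjamini-Hochberg adjusted p under 0.05. Of the 159 tested genes 67 were called, or 42.1%, and of all 7605 tested named genes 43.6% were called, so the share called was close to that background. By direction, 53 Zfp genes rose (33.3%; 21.8% of all named genes rose) and 14 fell (8.81%; 21.8% of all named genes fell), while 92 did not pass. The median difference was 0.18 over the Zfp genes and 0.01 over all named genes, and 106 of the 159 had a difference above 0. At least 2-fold changes were few, with 5 Zfp genes, against 6.07% of all named genes.

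The named probes are those the authors listed in their processed table, and each of these varied at least 1.20-fold over the 6 arrays, which can raise every share above. Of all 27168 tested probes 20.0% were called. In 90 Zfp genes the groups did not overlap, against 56.1% of all named genes. In 70 of them every knockout array was above every wild-type array and in 20 every one was below (28.5% and 27.6% of all named genes). Of the called genes Zfp846 alone had overlapping groups, and 24 genes without overlap did not pass. Rises outnumbered falls in each band of probe brightness. Between the 40th and 70th percentile of all probes 9 of 43 Zfp genes rose and 5 fell, between the 70th and 90th 37 of 98 rose and 7 fell, and above the 90th 7 of 18 rose and 2 fell. For all named genes the corresponding shares were 14.2% up and 12.9% down, 22.8% and 22.4%, and 25.9% and 27.7%. Changes were small, with a median called size of 1.34-fold, where the median SD among 3 arrays was 0.104 in wild type and 0.106 in knockout.

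**Figure D1:**
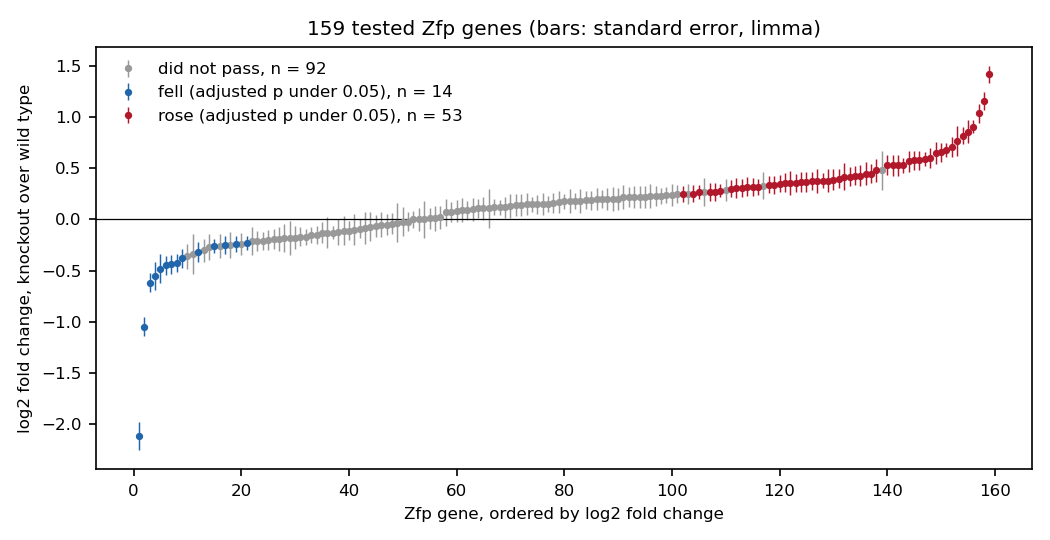
Each point is 1 of the 159 tested Zfp genes, ordered along the horizontal axis by its log2 fold change (knockout over wild type, vertical axis), with bars for the standard error from limma. The 53 called rises (red) fill the right end up to 1.42, and the 14 called falls (blue) the left end down to -2.12.

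The largest rise was that of Zfp362, a C2H2 gene with 1 named probe. Its intensity was 10.46, 10.59 and 10.73 in the wild-type arrays (A, B, C in this order throughout) and 11.99, 12.07 and 11.97 in the knockout arrays. The groups were far apart, a 2.67-fold rise (log2 difference 1.42 ± 0.081, SE, adjusted p = 1.68e-08). Zfp608, known from thymocytes as a repressor of the recombinase gene Rag1, was next by its brightest probe, with 9.01, 8.82 and 8.89 against 10.07, 10.05 and 10.08 (1.16 ± 0.086, adjusted p = 2.34e-07). Its other probes gave 0.68 (adjusted p = 0.000246) and 0.25 (adjusted p = 0.116), so the size of this rise depended on the probe. Zfp941 rose from 7.48, 7.56 and 7.42 to 8.52, 8.54 and 8.52 (1.04 ± 0.095, adjusted p = 2.14e-06). It was dim, with its wild-type mean at the 62.5th percentile of all probes, so the size of its rise is less certain. Zfp362, Zfp608 and Zfp941 were the only 3 rises of at least 2-fold.

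Zfp518b, a partner of histone methyltransferases, was among the brightest of the family and rose with hardly any spread. Its values were 12.18, 12.16 and 12.23 in wild type and 13.09, 13.10 and 13.11 in knockout, a 1.88-fold rise (0.91 ± 0.059, adjusted p = 6.34e-08). Zfp512b, also bright, went from 11.45, 11.36 and 11.49 to 12.07, 12.15 and 12.12 (0.68 ± 0.068, adjusted p = 5.53e-06). In both genes the knockout arrays lay above the 90th percentile of all probes. Zfp951 was dim, with 6.84, 6.86 and 6.78 against 7.87, 7.59 and 7.60. Its wild-type mean of 6.83 lay below the filter's limit of 6.90, so the gene was tested only because of its knockout arrays, and background is not separated from expression there. Its measured difference of 0.86, and its place among the 10 largest rises, are therefore a description without a firm size.

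The other 4 of the 10 largest rises were those of Zfp869, Zfp930, Zfp810 and Zfp30, with differences from 0.66 to 0.82. Zfp869 had 9.75, 9.61 and 9.75 in wild type and 10.49, 10.46 and 10.63 in knockout (0.82 ± 0.085, adjusted p = 7.59e-06), but its second probe gave 0.22 and did not pass (adjusted p = 0.111). Zfp930 was at 10.29, 10.37 and 9.70 against 11.06, 10.86 and 10.75 (0.77 ± 0.14, adjusted p = 0.00160). Wild type C was the low array here, and the groups still did not overlap. Zfp810 went from 8.54, 8.41 and 8.52 to 9.33, 9.14 and 9.14 (0.71 ± 0.095, adjusted p = 7.95e-05). Zfp30, studied in the mouse airway for its link with the chemokine Cxcl1, went from 9.02, 9.10 and 9.21 to 9.72, 9.69 and 9.90 (0.66 ± 0.093, adjusted p = 0.000142).

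The deepest falls were those of a pair of adjacent genes, Zfp985 and Zfp979, in the KRAB zinc finger cluster of distal chromosome 4. Zfp985 was at 9.11, 9.03 and 9.05 in wild type and at 6.62, 6.95 and 7.24 in knockout. That is a measured 4.36-fold fall (log2 difference -2.12 ± 0.14, SE, adjusted p = 5.31e-08), but the knockout mean lay at the 42.2nd percentile of all probes, near the filter's limit of 6.90, so the fold has no firm size. Zfp979 fell from 9.07, 8.92 and 9.08 to 7.94, 7.98 and 7.99 (-1.05 ± 0.093, adjusted p = 1.47e-06), and its second probe fell too (-0.91 ± 0.12, adjusted p = 0.000111). Both genes stood apart between the groups on every array. Probe sequences were not used here, so whether a probe of one gene also binds the other, or further relatives in the cluster, was not tested.

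The RefSeq promoters of this pair are shown because the genes fell together and lie side by side. Each window runs from 250 bases before to 50 after the gene start, 5′ to 3′ on the gene's own strand, in the mouse build GRCm38.p6: chr4:147553027-147553326 on the plus strand for Zfp985 and chr4:147642459-147642758 on the minus strand for Zfp979. Capitals mark the 7 stretches of at least 15 bases that are identical in both, the longest of 21 bases.
Zfp985: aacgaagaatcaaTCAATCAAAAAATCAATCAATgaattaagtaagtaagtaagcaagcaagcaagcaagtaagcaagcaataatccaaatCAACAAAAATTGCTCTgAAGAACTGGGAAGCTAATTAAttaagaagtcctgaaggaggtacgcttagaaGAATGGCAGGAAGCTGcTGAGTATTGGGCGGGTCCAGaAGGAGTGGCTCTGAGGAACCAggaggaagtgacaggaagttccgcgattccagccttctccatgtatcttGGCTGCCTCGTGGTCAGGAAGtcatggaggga
Zfp979: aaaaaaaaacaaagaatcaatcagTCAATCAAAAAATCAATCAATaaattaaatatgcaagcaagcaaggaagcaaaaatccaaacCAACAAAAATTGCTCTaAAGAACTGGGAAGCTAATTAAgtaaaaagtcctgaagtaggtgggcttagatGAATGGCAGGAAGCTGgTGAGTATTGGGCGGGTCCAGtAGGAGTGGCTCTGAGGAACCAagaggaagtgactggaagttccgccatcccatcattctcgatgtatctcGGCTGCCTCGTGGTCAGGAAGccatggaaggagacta
The windows were identical at 260 of 284 aligned bases, or 91.5%. Both hold a GC box (GGGCGG, the letters read by the Sp and Klf factors) and a CCAAT box (read by NF-Y), which lie in a capital stretch as ATTGGGCGGG, the CCAAT box on the other strand and sharing letters with the GC box. Zfp933, which lies beyond Zfp979 with 2 protein-coding genes between them, had a promoter identical to that of Zfp985 at 176 of 245 aligned bases (71.8%). It did not pass by any of its probes, with 9.49, 9.34 and 9.69 against 9.56, 9.82 and 9.74 for the brightest (0.20 ± 0.11, adjusted p = 0.241) and with -0.26 and 0.08 for the others.

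The remaining large falls were smaller than 2-fold by the brightest probe. Zfp296, a reprogramming factor of pluripotent cells, fell from 8.29, 8.26 and 8.29 to 7.63, 7.65 and 7.70 (-0.62 ± 0.093, adjusted p = 0.000233). Zfp93 fell from 8.64, 8.51 and 8.67 to 8.23, 8.09 and 8.15 (-0.45 ± 0.095, adjusted p = 0.00376). In both the groups were well apart. Zfp367 fell from 10.01, 9.86 and 9.97 to 9.42, 9.63 and 9.51 by its brightest probe (-0.43 ± 0.088, adjusted p = 0.00312). By its second probe, with 10.18, 10.02 and 10.00 against 8.11, 8.22 and 8.44, the fall was far deeper (-1.81 ± 0.10, adjusted p = 1.75e-08). The 2 probes therefore measured changes of unlike size, and this gene would join the 2-fold set by the second.

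Among the dimmer falls, Zfp706, a repressor of Klf4 in embryonic stem cells, went from 7.37, 7.69 and 7.51 to 7.16, 7.07 and 6.70 (-0.55 ± 0.14, adjusted p = 0.0105). That call was lost without wild type B (adjusted p = 0.0506) or knockout C (adjusted p = 0.0562). Zfp750, a driver of epidermal differentiation, went from 7.52, 7.61 and 7.88 to 7.30, 7.36 and 6.90 (-0.48 ± 0.14, adjusted p = 0.0237). It was lost without wild type C (adjusted p = 0.0701) or knockout C (adjusted p = 0.121). Zfp397 fell by 0.44 ± 0.092, Zfp532, known from gene fusions with NUT in carcinoma, by 0.38 ± 0.093 and Zfp182 by 0.32 ± 0.10. Of these, Zfp532 was lost without knockout B (adjusted p = 0.0582), and Zfp182 without any array other than wild type B (adjusted p from 0.0521 to 0.133).

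**Figure D2:**
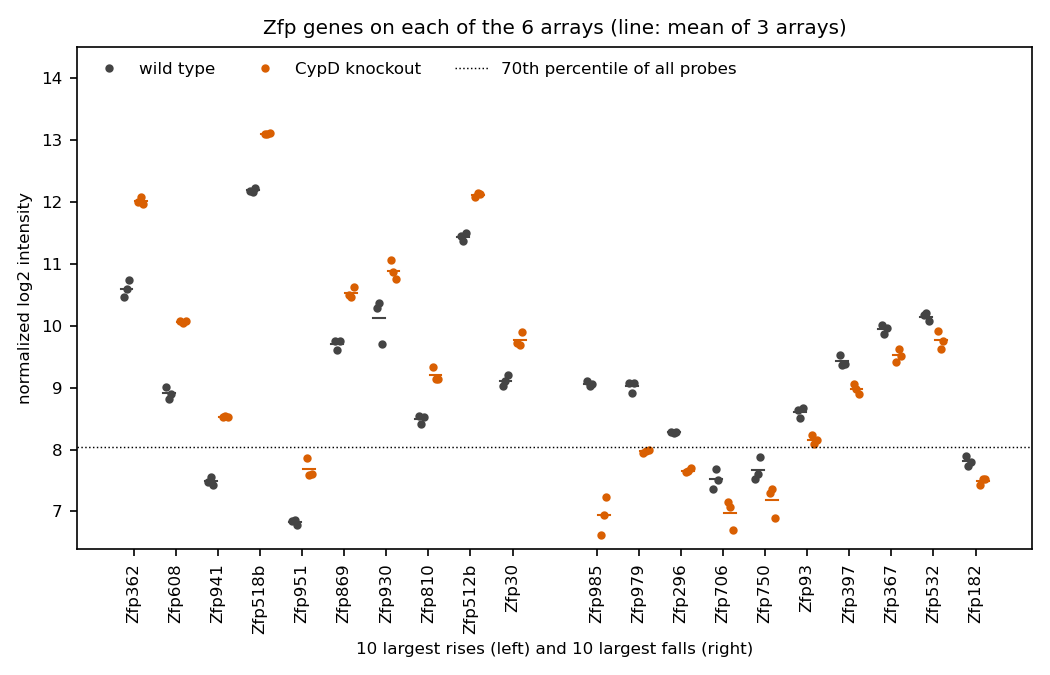
Normalized log2 intensity (vertical axis) of the 10 Zfp genes with the largest called rises (left) and the 10 with the largest called falls (right), 1 point per array in wild type (grey) and knockout (orange), with a short line at the mean of 3 arrays. In all 20 genes the groups do not overlap, and the dotted line marks the 70th percentile of all probes (8.04), below which Zfp985, Zfp979 and Zfp296 lie in knockout only.

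Zfp proteins that act on RNA or bind protein partners went in both directions. Of 11 listed genes 8 were tested, and 1 rose, 1 fell and 6 did not pass, so 2 of 8 were called, where 43.6% of all named genes were. The median difference was 0.01, as over all named genes. Zfp36 (tristetraprolin), whose zinc fingers bind AU-rich elements and which speeds mRNA decay, rose from 11.12, 11.22 and 11.31 to 11.44, 11.43 and 11.69 (0.31 ± 0.086, adjusted p = 0.0221). The gap between the groups was narrow, and the call was lost without wild type A, wild type B or knockout C (adjusted p = 0.0995, 0.0510 and 0.123) and with median scaling (adjusted p = 0.0573). Zfp326, a subunit of the DBIRD complex that couples transcription with splicing, fell from 12.47, 12.21 and 12.25 to 12.04, 12.07 and 12.11 (-0.24 ± 0.077, adjusted p = 0.0417). This call was lost without wild type A or without any one knockout array (adjusted p from 0.0758 to 0.184). Its 2 dimmer probes fell further, by 1.07 ± 0.21 and 1.12 ± 0.21 (adjusted p = 0.00230 and 0.00161), each with wild type C below wild type A and B.

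The 6 that did not pass had differences from -0.27 to 0.12. Zfp106, which is needed to maintain motor neurons and muscle, was at 9.52, 9.51 and 9.63 against 9.53, 9.37 and 8.93 (adjusted p = 0.179), with knockout C low. Zfp207 (BuGZ), a partner of Bub3 at the spindle, had a difference of 0.12 ± 0.076 (adjusted p = 0.355). Zfp346, a binder of double-stranded RNA, had -0.15 ± 0.087, and the nuclear RNA-binding Zfp638 had 0.07 ± 0.13. Zfp91, a ubiquitin ligase of NF-kB signalling, and the nucleolar Zfp330 had -0.05 ± 0.11 and 0.07 ± 0.097. In all 6 the groups overlapped.

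Of 10 listed stem cell and imprint factors 3 were tested. Zfp296 fell, as given above. Zfp322a, a factor of embryonic stem cells, rose from 8.41, 8.48 and 8.54 to 8.61, 8.81 and 9.08 (0.36 ± 0.12, adjusted p = 0.0438), with the lowest knockout array just above the highest wild-type one. The call was lost without wild type A, wild type B, knockout B or knockout C (adjusted p from 0.0921 to 0.223). Zfp445, which maintains imprints together with Zfp57, was at 9.34, 9.83 and 9.93 against 9.97, 9.88 and 10.67 (0.48 ± 0.19, adjusted p = 0.0971). It did not pass, the groups overlapped at knockout B, and knockout C was the high array, while without wild type C it did pass (0.59, adjusted p = 0.0284).

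Of 11 listed lineage factors 4 were tested. Zfp521, a partner of Ebf1 in mesenchymal and neural progenitors, rose from 9.47, 9.59 and 9.41 to 9.93, 9.77 and 9.86 (0.36 ± 0.088, adjusted p = 0.00901). Zfp703, a corepressor known from luminal breast cells, fell from 9.34, 9.33 and 9.35 to 9.04, 9.12 and 9.10 (-0.25 ± 0.084, adjusted p = 0.0482), a fall lost without any one of the 6 arrays (adjusted p from 0.0653 to 0.153). Zfp64, a regulator of the leukaemia gene Kmt2a, fell from 11.40, 11.26 and 11.29 to 11.06, 11.12 and 11.07 (-0.23 ± 0.072, adjusted p = 0.0339), lost without wild type A or any one knockout array (adjusted p from 0.0663 to 0.132). Zfp219, a partner of Sox9 in cartilage and the only tested Zfp gene on chromosome 14, which carries Ppif, was at 9.81, 9.76 and 10.01 against 9.68, 9.81 and 9.75 (-0.11 ± 0.091, adjusted p = 0.482).

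Of 6 listed silencers of retroelements and imprinted genes 3 were tested, and 1 rose, where 21.8% of all named genes rose. Zfp819, which silences intracisternal A particles in stem cells, went from 7.12, 7.05 and 6.92 to 7.67, 7.75 and 7.61 (0.65 ± 0.11, adjusted p = 0.000498). The groups were well apart, but the wild-type mean lay at the 47.1st percentile. Zfp809, which recognises the primer-binding site of murine leukaemia virus, was at 8.83, 8.89 and 8.69 against 8.66, 8.55 and 8.59. The groups did not overlap, yet the difference did not pass (-0.21 ± 0.094, adjusted p = 0.162). Zfp961 was at 8.09, 7.96 and 7.39 against 7.76, 7.34 and 7.78 and overlapped (-0.18 ± 0.17, adjusted p = 0.548). It passed as a fall without wild type C (-0.40, adjusted p = 0.0464).

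The cofactors through which KRAB proteins act were examined beside the Zfp genes. Of 25 listed genes of the KAP1 pathway 14 were tested, and 1 rose, 1 fell and 12 did not pass (14.3% called, against 43.6% of all named genes), with a median difference of 0.08. Trim28, the cofactor that binds the KRAB domain, rose by 0.20 ± 0.058 from 13.62, 13.63 and 13.76 to 13.87, 13.89 and 13.84 (adjusted p = 0.0286). Cbx5, a heterochromatin protein, fell by 0.65 ± 0.11 from 10.34, 10.44 and 10.09 to 9.80, 9.70 and 9.42 (adjusted p = 0.000806). Among 47 tested zinc finger genes with other names (Klf, Zbtb, Zscan, Zkscan, Gli, Zic, Zeb, Snai, Egr, Sp and Prdm), 16 rose, 8 fell and 23 did not pass, with a median of 0.13. That is 51.1% called, and of all named genes 21.8% rose and 21.8% fell. The Zbtb genes, with 20 tested, had 6 rises and 1 fall, and the Klf genes, with 9 tested, had 2 rises and 4 falls.

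Of the 5 Zfp genes with the brightest probes 1 rose (Zfp518b), 1 fell (Zfp326) and 3 did not pass. Among all named genes above the 90th percentile 25.9% rose and 27.7% fell. Zfp131, a BTB protein that partners Kaiso, was at 12.96, 12.73 and 12.72 against 12.75, 12.58 and 12.62 (-0.15 ± 0.078, adjusted p = 0.215). Zfp943 was at 12.72, 12.64 and 12.59 against 12.44, 12.57 and 12.54, apart by a narrow gap and not called (-0.13 ± 0.066, adjusted p = 0.204). Zfp212 was at 12.08, 12.12 and 12.05 against 12.32, 12.32 and 12.04, with knockout C down among the wild-type values (0.15 ± 0.080, adjusted p = 0.247). It passed without knockout C (0.24, adjusted p = 0.0439). Zfp105, the gene too dim to be tested, was at 6.52, 6.22 and 6.41 against 7.52, 7.27 and 7.32, so that its groups did not overlap either.

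Several probes were tested for 40 Zfp genes, and they often differed in whether they passed. In 7 genes every probe was called, in 18 no probe was, and in 15 some were and others were not, while in 0 genes did probes rise and fall by the test. Zfp979, Zfp326 and Zfp367 had all their probes called, and so had the rising genes Zfp277, Zfp41, Zfp446 and Zfp82, whose second probes gave 0.33, 0.28, 0.35 and 0.35. Zfp148, which binds GC-rich promoters, rose by its brightest probe, from 10.67, 10.36 and 10.92 to 11.20, 11.15 and 11.06 (0.48 ± 0.11, adjusted p = 0.00784). Its second probe gave -0.14 (adjusted p = 0.324), and the mean of both did not pass (0.17, adjusted p = 0.203). Zfp292 likewise rose by its brightest probe (0.27 ± 0.071, adjusted p = 0.0153), with -0.02 and 0.10 by the others.

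Other genes with 1 probe called and another not were the risers Zfp52 (0.58 and 0.22), Zfp286 (0.43 and 0.06), Zfp661 (0.38 and 0.27), Zfp2 (0.36 and 0.18), Zfp512 (0.30 and 0.22) and Zfp472 (0.25 and 0.24). Of these Zfp472 was the least secure, since its call was lost in 11 of 19 alternative settings. The fallers Zfp532 (-0.38 and -0.24), Zfp236 (-0.26 and -0.18) and Zfp64 (-0.23 and -0.25) had the same pattern. In Zfp746 (PARIS), a repressor of the mitochondrial regulator Ppargc1a, the brightest probe did not pass, with 9.65, 9.81 and 9.79 against 9.96, 10.06 and 9.96 (0.25 ± 0.084, adjusted p = 0.0558), while the other did (0.26, adjusted p = 0.0474). Its groups did not overlap by the brightest probe. Zfp763 was alike, with 0.33 (adjusted p = 0.104) and 0.36 (adjusted p = 0.0364).

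**Figure D3:**
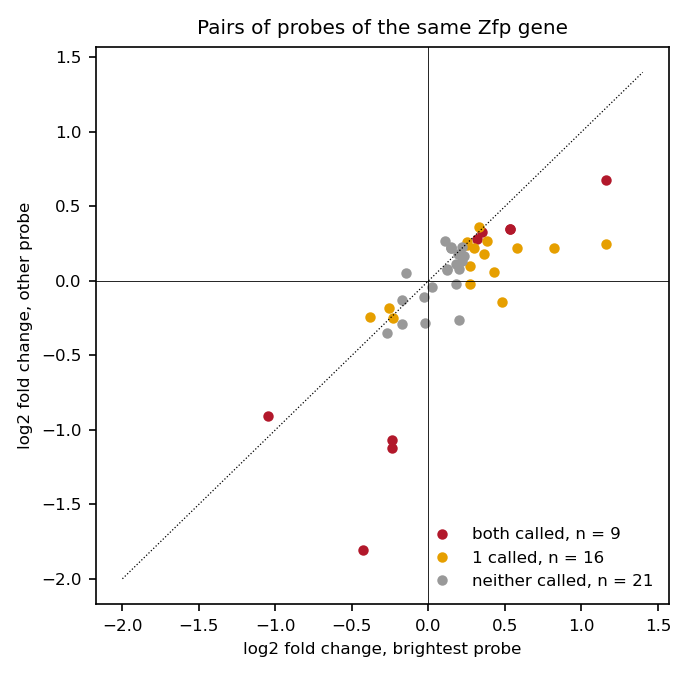
Log2 fold change (knockout over wild type) of the brightest probe of a Zfp gene (horizontal axis) against that of another probe of the same gene (vertical axis), for 46 pairs; the dotted line marks equal values. Both probes were called in 9 pairs (red), 1 probe in 16 (yellow) and neither in 21 (grey); the points far below the line at the lower left are Zfp367 (-1.81 by its second probe) and Zfp326 (-1.07 and -1.12).

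The called rises beyond the 10 largest were of moderate size. The largest of these were Zfp819 (0.65), Zfp157 (0.60), Zfp637 (0.59), Zfp52 and Zfp90 (0.58 each) and Zfp61 (0.57). Zfp446, Zfp579, Zfp82 and Zfp960 were at 0.53 each, and the rest were below 0.50. Zfp637 was bright and even, at 11.33, 11.41 and 11.46 against 12.02, 11.97 and 11.97 (0.59 ± 0.068, adjusted p = 2.35e-05), and so was Zfp579, at 10.25, 10.23 and 10.30 against 10.79, 10.80 and 10.79 (0.53 ± 0.073, adjusted p = 0.000115). In both the spread within a group was a small part of the difference. The weakest rises, Zfp37 and Zfp472, were at 0.25. The call of Zfp37 was lost in 10 of 19 alternative settings. Among these were all 6 fits that left out 1 array (adjusted p from 0.0517 to 0.154). Among genes that did not pass, the largest differences were 0.48 for Zfp445 and -0.36 for Zfp235.

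Zfp genes were unevenly spread over the genome, with 37 on chromosome 7, 17 on chromosome 17, 13 on chromosome 8 and 12 on chromosome 5, out of 159 on 19 chromosomes. Of those on chromosome 7, 15 rose and 2 fell, and of 517 other named genes there 131 rose and 76 fell. For chromosome 17 the counts were 6 and 0 (other genes, 52 and 58 of 329), for chromosome 8 they were 5 and 1 (other genes, 111 and 53 of 392), and for chromosome 5 they were 7 and 1 (other genes, 137 and 59 of 491). Other genes on chromosomes 5, 7 and 8 thus also rose more often than they fell. Outside chromosome 7, 38 of 122 Zfp genes rose and 12 fell, where 21.8% of all named genes rose and 21.8% fell.

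Genes of other kinds also leaned by chromosome, and Zfp genes leaned the same way on some chromosomes but not on others. On chromosome 18 the median difference of the 209 other named genes was -0.36, with 65.6% of them called down, and on chromosome 15 it was -0.30, with 58.7% down. The shift was alike on each knockout array, from -0.33 to -0.35 on chromosome 18 and from -0.30 to -0.32 on chromosome 15. Chromosome 6 leaned upward, with a median of 0.17. On the 7 chromosomes whose other genes had medians above 0.1, 32 of 79 Zfp genes rose and 4 fell (other genes there, 29.2% up and 13.2% down). On the 6 chromosomes with medians below -0.1, 8 of 37 rose and 8 fell (other genes there, 12.7% up and 39.1% down). On the 6 between, 13 of 43 rose and 2 fell (other genes there, 19.3% up and 19.7% down). The Zfp medians of these groups were 0.22, -0.13 and 0.15, in the same order. On chromosomes 4 and X the directions differed, with medians of -0.11 and -0.13 for other genes and 0.22 and 0.12 for Zfp genes.

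Of the 159 Zfp genes 107 (67.3%) lay above the median of the other genes of their own chromosome, by a median of 0.11. In a setting chosen after seeing the data, each array was centred, chromosome by chromosome, on the median deviation of all other tested named probes. There 43 Zfp genes rose and 10 fell, against 18.5% and 18.1% of all named genes. Most of the large changes also stayed large by plain difference from the median of the other genes. Relative to the median of chromosome 4, Zfp985 stood at -2.01, Zfp979 at -0.94 and Zfp362 at 1.53. Zfp608 stood 1.52 above the median of chromosome 18. After centring, 20 of the 67 calls were lost, 14 rises and 6 falls. The falls of Zfp397, Zfp706, Zfp367 and Zfp182 shrank to -0.06, -0.23, -0.28 and -0.20 (adjusted p = 0.772, 0.325, 0.0569 and 0.226), and Zfp532 and Zfp236 moved to 0.01 and 0.13. The lost rises included Zfp277 (0.25), Zfp36 (0.22), Zfp606 (0.28), Zfp513 (0.23), Zfp512 (0.19) and Zfp248 (0.11), with adjusted p from 0.0728 to 0.491 for these. Why chromosomes differed between the groups was not tested.

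**Figure D4:**
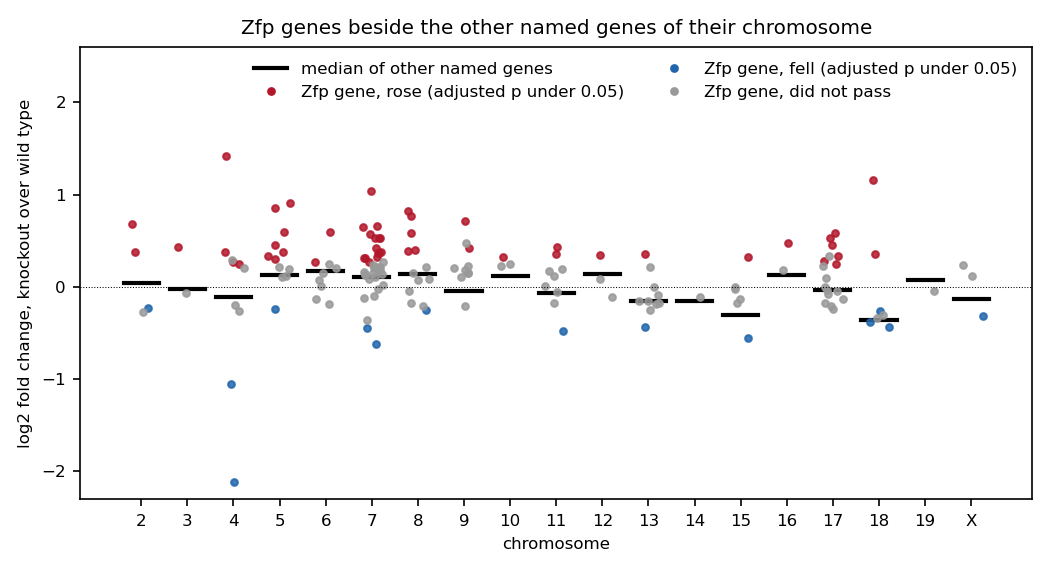
Log2 fold change (knockout over wild type, vertical axis) of each tested Zfp gene by chromosome (horizontal axis), red for a called rise, blue for a called fall and grey for genes that did not pass. The black lines are the medians of the other named genes on each chromosome, lowest on chromosomes 18 (-0.36) and 15 (-0.30) and highest on chromosome 6 (0.17).

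Neighbouring Zfp genes were examined next, taking as a run those with at most 5 protein-coding genes between them. There were 24 runs with 70 of the genes, and 89 genes stood outside. In runs 32.9% rose and outside 33.7%, against 21.8% of all named genes. Rises made up 79.1% of all 67 Zfp calls, so calls in a run would often all be rises whatever their place. In 7 runs at least 2 genes were called. In 5 of these all calls were rises, in 1 (Zfp985 and Zfp979) all were falls, and in 1 on chromosome 7 Zfp93 fell while its neighbours Zfp61 and Zfp94 rose by 0.57 and 0.27. The rise of Zfp94 was lost in 9 of 19 alternative settings, among them the fits without any one array other than wild type B (adjusted p from 0.0579 to 0.146). On chromosome 8 Zfp930, Zfp869 and Zfp866 rose by 0.77, 0.82 and 0.40, and Zfp868 between them did not pass (-0.21). On chromosome 7 Zfp30 and Zfp82 rose by 0.66 and 0.53, with Zfp74 between them at 0.27 and not called, and Zfp667 and Zfp28 rose by 0.37 and 0.32. Without knockout B neither passed (adjusted p = 0.0755 and 0.0960), nor did Zfp667 without wild type B (adjusted p = 0.0704), and after chromosome centring Zfp667, Zfp28 and Zfp866 did not pass (adjusted p = 0.0654, 0.108 and 0.0570). On chromosome 17 Zfp960 and Zfp97 rose by 0.53 and 0.34, and Zfp52 and Zfp760 by 0.58 and 0.45, of which Zfp97 was lost without knockout A (adjusted p = 0.0677). The run of 5 from Zfp553 to Zfp688 on chromosome 7 held 0 called genes, with differences from -0.12 to 0.20. Since probes of close relatives can share targets, neighbours are not independent measurements.

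Promoters from RefSeq were available for 127 of the 159 genes, and 5 short motifs were counted in them on both strands. TTCCGG, the core letters read by ETS factors, was in 37.8% of Zfp promoters, against 27.7% of the promoters of other named genes and 15.2% of all 27025 promoters. GCCATNTTG, the letters read by YY1, was in 8.66%, against 4.40% and 2.65%. GGGCGG was in 55.1%, against 66.8% and 35.9%, CCAAT in 44.9%, against 39.4% and 37.9%, and TATAAA, the TATA box, in 5.51%, against 7.41% and 14.2%. A median Zfp promoter held 17 CG pairs, that of another named gene 21. Within the family, TTCCGG was in 35.7% of 42 risers with a promoter, in 14.3% of 7 fallers and in 41.0% of 78 genes that did not pass. GGGCGG was in 45.2% of risers, 85.7% of fallers and 57.7% of genes that did not pass. With 7 fallers these shares are a description only.

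The promoters of Zfp951 and Zfp512b are shown as the 2 largest risers whose window holds TTCCGG, in capitals, again 5′ to 3′ on the gene's strand in GRCm38.p6. They lie at chr5:104859978-104860277 and chr2:181592412-181592711, both on the minus strand. Zfp951 was tested only because of its knockout arrays, so its place among the largest risers is not firm.
Zfp951: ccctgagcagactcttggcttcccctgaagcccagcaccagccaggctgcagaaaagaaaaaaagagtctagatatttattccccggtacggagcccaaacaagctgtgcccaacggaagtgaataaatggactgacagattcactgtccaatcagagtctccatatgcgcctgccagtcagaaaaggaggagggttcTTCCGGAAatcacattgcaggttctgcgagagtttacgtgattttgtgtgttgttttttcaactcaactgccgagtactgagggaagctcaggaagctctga
Zfp512b: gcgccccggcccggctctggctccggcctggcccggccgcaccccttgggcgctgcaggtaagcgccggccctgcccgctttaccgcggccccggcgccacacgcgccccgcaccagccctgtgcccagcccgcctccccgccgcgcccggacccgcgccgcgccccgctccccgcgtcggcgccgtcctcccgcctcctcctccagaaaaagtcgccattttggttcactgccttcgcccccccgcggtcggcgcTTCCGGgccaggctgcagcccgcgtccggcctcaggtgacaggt
In Zfp951 the motif stands on both strands with shared letters, which gives the longer capital run. The windows differ in base composition, with 8 CG pairs in Zfp951 and 43 in Zfp512b. A match of letters is a description of the window and shows no binding.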

How the data were processed

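RNA of 6 samples (3 wild type, 3 CypD knockout) was labelled with biotin and hybridised to Illumina arrays. The authors deposited linear probe intensities per array without detection p-values, and a processed table of intensities with probe annotation, in which each listed probe varied at least 1.20-fold and reached at least 273. The submitters' processing notes name BeadStudio 3.0 and give no role for it.

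In limma 3.58.1 (R 4.3.3), background was corrected with normexp (offset 50), and log2 values were quantile-normalized. Probes with a mean above the 40th percentile were tested with lmFit and eBayes (intensity trend, two-sided), with Benjamini-Hochberg adjustment over all of them. The script was tested on simulated data. Errors of differences are standard errors, and the number of arrays limits the precision. The offset compresses dim signals. Probe brightness, which also depends on the probe, served to choose, filter and band probes, and expression levels of different genes were not compared. An exact permutation test of 3 against 3 arrays cannot go below p = 0.1.

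The members and all gene lists were chosen with earlier results of these data known. Named genes were the 10 largest called rises and falls without overlap, members of 4 role lists, the 5 brightest, genes whose probes disagreed and members on the chromosome of Ppif; a few others were named after their values were seen. All 159 symbols matched RefSeq, which gave chromosomes and gene order (GRCm38.p6). A planned count of zinc fingers and KRAB domains needs protein sequences, which were not used here. Replicate letters did not pair the arrays. Alternatives changed the background correction, normalization, filter, variance model, probe choice and replicate block, or left out 1 array.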

Additional observations from a re-analysis of the deposited data

How the results depend on the processing

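Rises outnumbered falls among Zfp genes under all 19 alternatives, at 75.0% to 83.9% of the called genes. With median scaling 48 Zfp genes rose and 14 fell, and of all named genes 18.5% rose and 24.4% fell. With chromosome centring 43 rose and 10 fell, and of all named genes 18.5% rose and 18.1% fell. For the other alternatives the shares of all named genes are not given, so a shift of the whole array is not separated there. Of 67 calls 33 held in every alternative that tested them, 29 rises and 4 falls (Zfp296, Zfp93, Zfp979 and Zfp985). The 29 rises include Zfp951, which the main filter kept only because of its knockout arrays. The filter at the 70th percentile did not test Zfp113, Zfp296, Zfp819, Zfp941, Zfp951, Zfp960 and Zfp985, so these had 18 alternatives. Of the 67 calls 40 held without any one array. Leaving out 1 array gave 47 to 72 called genes, 39 to 54 rises, 8 to 18 falls and 5 to 6 changes of at least 2-fold; the fewest falls came without knockout C (8), wild type A (9) and knockout B (9). The 2-fold count of 5 became 3 without background correction, with the authors' processed table, with the filter at the 70th percentile and with chromosome centring, and that filter, which tests 116 of the genes, left 9 falls. Chromosome centring was chosen after seeing the data. It moved Zfp236 from -0.26 to 0.13 (adjusted p = 0.277) and Zfp532 from -0.38 to 0.01 (adjusted p = 0.973). The probe of highest variance moved Zfp292 from 0.27 to -0.02 (adjusted p = 0.959), since it is another probe. With the replicate letter as a block, 61 genes were called, 50 up and 11 down, and Zfp445 passed (adjusted p = 0.0170). The letters were not used to pair arrays, because deviations of same-lettered arrays correlated at 0.101, -0.090 and 0.075 and 1 of 3 wild-type arrays correlated best with its own letter. Signal over background limits the dim genes: 43 of 159 had means below the 70th percentile.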
